A study of Mus musculus with 2 samples.

Results

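The ABC transporter family was described in adult mouse liver by polyadenylated RNA sequencing. Its members were the genes listed in both libraries whose identifier maps to a GENCODE protein-coding gene with a symbol of subfamily Abca to Abcg followed by a number. The rule found 50 members among the 43346 genes listed, and it used names and no measured value. The series holds 2 libraries, and the labels call them biological replicates 1 and 2. Both belong to 1 group. The liver came from 8-week-old mice of the inbred strain C57BL/6J, pooled from male and female littermates, with no treatment or altered gene named and a health state labelled unknown. The libraries share 1 donor identifier but carry 2 biosample identifiers, and how many animals each pool held is not stated. Whether the pools came from separate animals is not stated either, so a p-value between the libraries covers only the gap between these 2 samples, and that gap may be technical. Estimated reads numbered 60770411 in replicate 1 and 61688916 in replicate 2.

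ABC transporters bind and hydrolyse ATP in a pair of nucleotide-binding domains to move substrates across membranes. A full transporter carries both domains in 1 chain, while other members carry 1 domain and work as dimers. In hepatocytes, members on the canalicular membrane secrete bile salts, phospholipid, sterols and conjugated organic anions into bile. Members on the basolateral membrane, which faces the blood, export substrates back to the circulation. Further members sit in peroxisomes, mitochondria and lysosomes, where they carry fatty acyl-CoA, substrates of heme and iron metabolism, lipids and cobalamin. Genes were grouped here by the location usually given for the protein, which was not measured, and several of these proteins are known from more than 1 membrane.

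At a level of 1 TPM or more, 33 of the 50 members (66%) were detected in both libraries, against 47.4% of 21474 protein-coding genes. TPM is an abundance per transcript length that is scaled to 1 fixed sum per library. Another 9 members were below 0.1 TPM in both libraries, and the remaining 8 met neither condition. The family summed to 1381.1 and 1655.6 TPM in replicates 1 and 2, or 0.152% ± 0.0194 (SD, n = 2) of all TPM. The 3 most abundant members, Abcc3, Abcc2 and Abcb11, held 41.7% and 42.3% of that sum, and the leading 10 held 77.8% and 78.6%. By mean level 4 members exceeded 100 TPM, 18 lay between 10 and 100 TPM and 12 between 1 and 10 TPM.

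**Figure D1:**
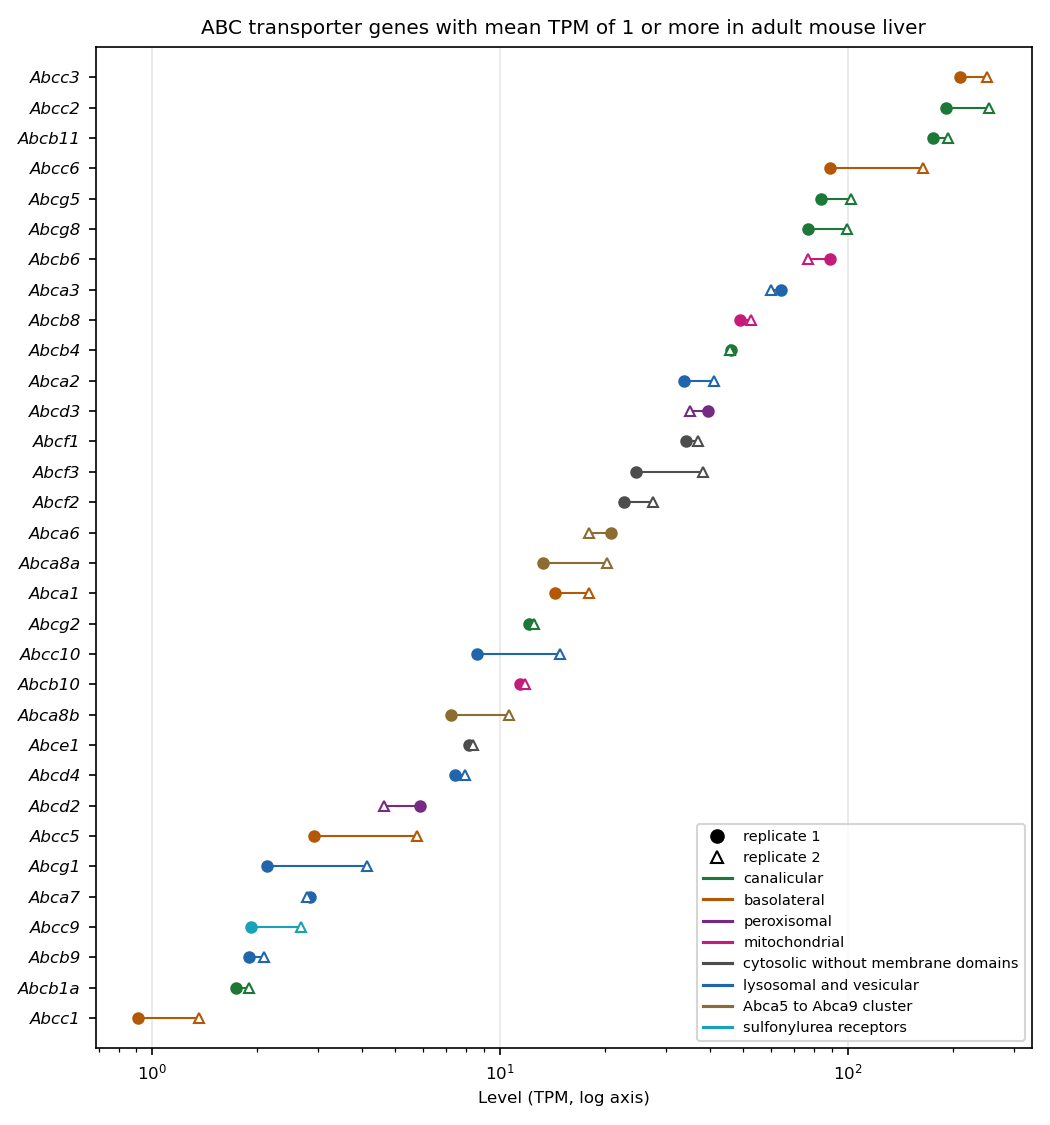
Level in TPM (log axis) of 32 ABC transporter genes with a mean of 1 TPM or more, ordered by mean, with replicate 1 as a filled circle, replicate 2 as an open triangle, a line joining the libraries and the colour giving the group. The 3 leading genes lie between 175.2 and 255.2 TPM, and the lowest, Abcc1, has 0.91 and 1.36 TPM.

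The order of levels was resolved in part. Among the 33 pairs of neighbours in the order of mean TPM, the ranges of the libraries overlapped in 21 and did not overlap in 12. The ranges of Abcc3 and Abcc2 overlapped, as did those of Abcc2 and Abcb11, and all 3 genes lay above Abcc6 in both libraries. Neighbours among Abcc6, Abcg5, Abcg8 and Abcb6 could not be ordered by these ranges, and neither could neighbours among Abca6, Abca8a and Abca1. Abca3, Abcb8 and Abcb4 each stood clear of both neighbours.

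**Figure D2:**
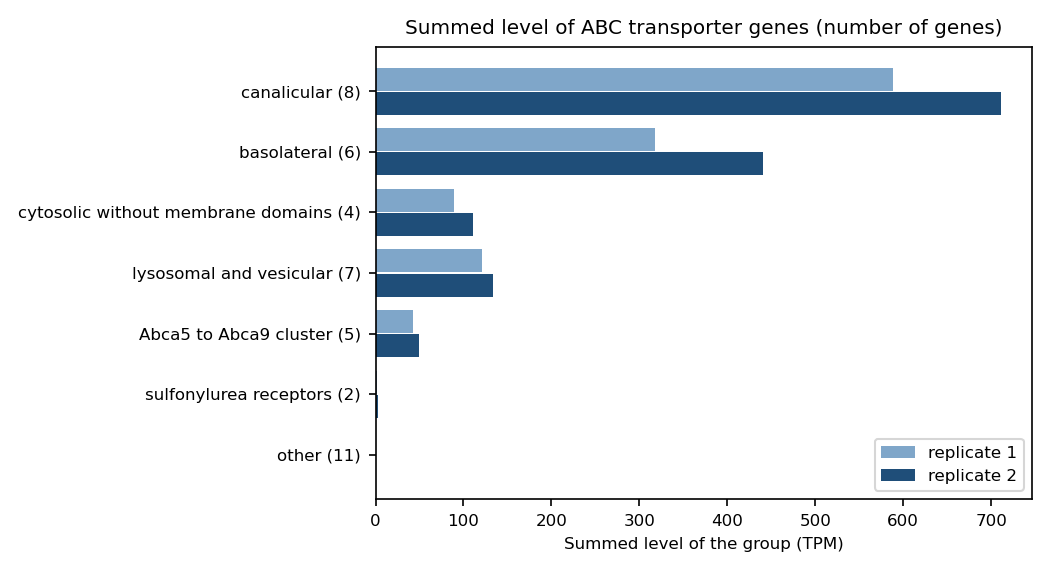
Summed level in TPM of 7 groups of ABC transporter genes, with the number of genes in brackets, 1 bar per library and an axis that starts at 0. The canalicular genes sum to 588.1 and 710.8 TPM, more than any other group drawn, and the 11 genes without an assigned group of their own (other) to 0.32 and 0.77 TPM.

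The 8 canalicular genes formed the most abundant group, with a summed level of 588.1 and 710.8 TPM, or 42.6% and 42.9% of the family. Of these genes 7 were detected in both libraries, and Abcb1b was below 1 TPM in both. Abcc2 (ENSMUSG00000025194, chr19:43782192-43840740, plus strand, GRCm38), which exports bilirubin glucuronide and other conjugates into bile, had 191.2 and 255.2 TPM in replicates 1 and 2. Abcb11 (ENSMUSG00000027048, chr2:69238282-69342616, minus strand), the bile salt export pump, had 175.2 and 194.1 TPM. Abcb4 (chr5:8893717-8959231, plus strand), the floppase that delivers phosphatidylcholine to bile, had 46.03 and 45.91 TPM. The bile salt pump was thus listed at a higher level per length than the phospholipid floppase in both libraries, with no overlap of their ranges.

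Abcb11 is a known target of the bile acid receptor encoded by Nr1h4, and Abcc2 of several nuclear receptors that bind hexamers of the form AGGTCA. Abcb11 and Abcc2, the leading canalicular genes, both hold that hexamer shortly before their RefSeq start, which is why these bases are shown. For Abcb11 they are the bases up to the start, and for Abcc2 the hexamer with its flanks. Both were taken from RefSeq on GRCm38.p6 and run 5′ to 3′ on the strand of the gene. Capitals mark AGGTCA or its reverse complement TGACCT.
Abcb11, chr2:69342617-69342866, minus strand: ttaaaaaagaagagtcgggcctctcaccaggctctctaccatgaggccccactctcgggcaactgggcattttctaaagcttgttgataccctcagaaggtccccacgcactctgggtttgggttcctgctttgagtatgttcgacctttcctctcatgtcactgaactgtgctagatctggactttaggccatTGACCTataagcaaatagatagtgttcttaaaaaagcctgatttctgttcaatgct
Abcc2, chr19:43782247-43782276, plus strand: tgtcaggatgaaAGGTCAggagacttgcct

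The hexamer began at base -56 of Abcb11 and at base -49 of Abcc2, counted from the RefSeq start. The RefSeq start of Abcc2 is at 43782308, while a GENCODE M21 model of the gene begins at 43782192, so by that annotation the hexamer lies in the first exon, before the coding bases. RefSeq gave 45 windows of 300 bases (250 before to 50 after a start) for 38 members, and none for 12. AGGTCA or TGACCT occurred in 7 of the 45 windows (15.6%), against 16.3% of 32851 windows of all genes, so the family's share was near that of all genes. The windows with it belonged to Abcb6, Abcb11, Abcg2 (2 windows), Abcc10 (2 windows) and Abcc2. The TATA-box hexamer TATAAA or its reverse complement TTTATA was in 7 windows (15.6%), against 13.6% of all. These are matches of letters, and binding was not measured. The median GC content of the members' windows was 57.0%, against 52.7% in all windows.

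The sterol pair Abcg5 and Abcg8 encodes the subunits of 1 heterodimer that secretes cholesterol and plant sterols. Abcg5 (chr17:84658234-84683011, minus strand) had 83.87 and 101.9 TPM and Abcg8 (chr17:84676302-84700333, plus strand) had 76.99 and 99.18 TPM. The ranges of these subunits overlapped, and both were listed higher in replicate 2. A RefSeq start of Abcg8 lies 110 bases from that of Abcg5 on the opposite strand, and the 109 bases between these starts are shown because they precede both. A further RefSeq start of Abcg8 at 84676302 places them inside an intron of the model from that start, which held 18.58% and 14.61% of the gene's TPM. They run on the plus strand, with TTTATA in capitals.
Abcg5 to Abcg8, chr17:84683012-84683120: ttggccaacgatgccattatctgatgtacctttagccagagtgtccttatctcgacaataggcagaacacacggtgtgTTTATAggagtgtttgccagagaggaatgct

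That hexamer began at base -31 of the nearer Abcg8 start and at base -84 of Abcg5. The windows of these starts shared 209 bases and were not independent in the counts above. A second pair with opposite starts, Abca3 and Abca17, lay 964 bases apart and did not share a level. Abca3 had 64.04 and 60.05 TPM, whereas Abca17 had 0 and 3 estimated reads. The coding sequences of Abcg5 and Abcg8 were identical at 58.8% of aligned bases.

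Of the multidrug transporters, Abcg2, an exporter of xenobiotics and urate, had 12.07 and 12.52 TPM, and Abcb1a, a P-glycoprotein, had 1.74 and 1.9 TPM. Abcb1b, the other mouse P-glycoprotein gene, had 0.94 and 0.08 TPM. Abcb1a, Abcb1b and Abcb4 lie together on chromosome 5 between 8660077 and 8959231. The coding sequences of Abcb1a and Abcb1b were identical at 88.2% of aligned bases, and those of Abcb1a and Abcb4 at 76.4%. The 60 coding bases around the first Walker A motif, the loop that holds the phosphates of ATP, are shown from the GENCODE M21 models (GRCm38), with capitals at bases that differ from Abcb1a.
Abcb1a, coding bases 1249 to 1308: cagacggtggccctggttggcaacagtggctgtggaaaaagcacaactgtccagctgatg
Abcb1b, coding bases 1258 to 1317: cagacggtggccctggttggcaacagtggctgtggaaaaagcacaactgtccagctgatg
Abcb4, coding bases 1258 to 1317: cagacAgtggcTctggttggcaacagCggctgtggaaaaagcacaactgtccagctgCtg

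Over this stretch Abcb1a and Abcb1b did not differ and Abcb4 differed at 4 bases. The longest identical run of Abcb1a and Abcb1b was 338 bases, longer than a read of 76 bases. A read from within it cannot be assigned by its own sequence, although its mate may lie outside the run. The stretch of 60 bases in which they differ most is set beside it, with the differing bases in capitals.
Abcb1a, coding bases 1913 to 1972: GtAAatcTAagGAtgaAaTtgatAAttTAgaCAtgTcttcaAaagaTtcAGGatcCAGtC
Abcb1b, coding bases 1922 to 1981: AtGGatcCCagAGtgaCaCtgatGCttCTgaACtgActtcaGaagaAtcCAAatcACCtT

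The differing bases number 25 in this stretch. Of all 76-base words in the models of Abcb1b, 12.2% also occurred in another gene, and of those of Abcb1a 11.2%, most of them shared between the pair. The authors' posterior SD of the estimated count was 1.39% and 6.07% of the count for Abcb1b and 0.967% and 0.29% for Abcb1a. The split of reads between these genes is uncertain to that extent.

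The 6 basolateral genes summed to 317.7 and 440.8 TPM, or 23% and 26.6% of the family. Abcc3 (ENSMUSG00000020865, chr11:94343295-94392997, minus strand), which exports glucuronides and bile salts to blood, was the member with the highest mean in the family, at 209.8 and 250.9 TPM. Abcc6 (chr7:45967555-46030302, minus strand), needed for release of ATP and so for inhibition of calcification, had 88.88 and 164.2 TPM, the widest gap in TPM between the libraries of any member. Abca1, which loads phospholipid and cholesterol on apolipoprotein A-I, had 14.33 and 18.06 TPM. The other 3 were low in both libraries. Abcc5, an exporter of nucleotides and organic anions, had 2.92 and 5.78 TPM, Abcc1, an exporter of glutathione conjugates, had 0.91 and 1.36 TPM, and Abcc4, an exporter of cyclic nucleotides and bile salts, had 0.87 and 0.48 TPM. Abcc3 was thus listed at over 100 TPM while Abcc4, another basolateral route for bile salts, stayed below 1 TPM in both libraries.

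Peroxisomal members encode importers of fatty acyl-CoA that carry 1 nucleotide-binding domain and pair up. Abcd3, the abundant peroxisomal membrane protein that imports branched-chain and bile acid precursors, had 39.69 and 35.07 TPM. Abcd2, an importer of very long chain and polyunsaturated fatty acids, had 5.87 and 4.62 TPM. Abcd3 lay above Abcd2 in both libraries with no overlap of ranges. Of 10 partner genes of peroxisomal import and of very long or branched-chain fatty acid oxidation, all were detected, from Pex3 at 7.93 and 8.28 TPM to the bile acyl-CoA synthetase Slc27a5 at 1659.7 and 1984.6 TPM.

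Among the mitochondrial genes, Abcb6, linked to porphyrin transport, had 88.85 and 76.61 TPM, and Abcb8, linked to mitochondrial iron export and potassium channels, had 49.07 and 52.5 TPM. Abcb10, which acts in heme synthesis, had 11.41 and 11.78 TPM. Abcb6 shared 86.3% of its 76-base words with the annotated gene Gm29253, and its level is uncertain in so far as reads were split between them. The authors' posterior SD of its estimated count was 0.219% and 0.216% of the count.

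The 4 genes of the Abce and Abcf subfamilies encode soluble ATPases of translation with no membrane domain, and all were detected. Abcf1 had 34.32 and 37.03 TPM, Abcf3 had 24.61 and 38.42 TPM, Abcf2 had 22.66 and 27.44 TPM, and the ribosome recycling factor Abce1 had 8.11 and 8.37 TPM. The genes of these soluble proteins made up 6.49% and 6.72% of the family's TPM.

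The lysosomal and vesicular group held 7 genes, all detected, with a sum of 120.6 and 133.1 TPM. Abca3, the phospholipid transporter known from surfactant storage in lung, led at 64.04 and 60.05 TPM, and Abca2 followed at 33.72 and 41.21 TPM. Abcc10 had 8.6 and 14.87 TPM and Abcd4, which exports cobalamin from lysosomes, had 7.4 and 7.91 TPM. Abcg1, a sterol exporter known from macrophages, had 2.13 and 4.15 TPM, Abca7 had 2.83 and 2.79 TPM, and the lysosomal peptide transporter Abcb9 had 1.9 and 2.1 TPM. Abca3 was thus more abundant in both libraries than Abca1 of the same subfamily.

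The tandem genes Abca5 to Abca9 on chromosome 11, between 109932190 and 110337716, did not share a level. Abca6 had 20.89 and 17.96 TPM, Abca8a had 13.25 and 20.31 TPM and Abca8b had 7.23 and 10.62 TPM. Their neighbours Abca5 (0.49 and 0.42 TPM) and Abca9 (0.28 and 0.37 TPM) stayed below 1 TPM. Coding identity of Abca8a and Abca8b was 74.8%, and they shared 34 words of 76 bases.

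The sulfonylurea receptor Abcc9, a regulatory subunit of ATP-sensitive potassium channels, had 1.92 and 2.68 TPM, while Abcc8, the receptor of pancreatic beta cells, had 0 reads in both libraries. The channel pores showed the same split, with Kcnj8 at 1.58 and 2.78 TPM and Kcnj11 at 0 reads in both. A count of 0 allows up to 3 reads, which for Abcc8 is 0.0129 and 0.0128 TPM. Abca12, Abca15, Abca16 and Abcb5 also had 0 reads in both libraries, and Abca13 had 0 and 1. The retinal transporter Abca4 had 12 and 9 reads and Abcg3 33 and 57 reads. The 11 genes of that remaining group summed to 0.32 and 0.77 TPM.

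Among ABC proteins whose symbols fall outside the rule, the antigen peptide transporter subunits Tap1 (15.69 and 20.14 TPM) and Tap2 (15.38 and 21.15 TPM) were detected, and the chloride channel Cftr, known in liver from bile duct cells, was listed at 0.01 and 0.02 TPM. Of 16 other genes of bile and sterol transport, 13 were detected in both libraries. The basolateral bile salt uptake carrier Slc10a1 had 911.2 and 1074.8 TPM, above every ABC member in both libraries, and the exporter subunit Slc51a had 0 reads. The flippase Atp8b1, which protects the canalicular membrane, had 7 and 6.7 TPM. Of 12 regulators of transporter genes, all were detected, among them Nr1h4 at 43.77 and 50.25 TPM, the sterol receptor Nr1h3 at 159.1 and 170.1 TPM, and the corepressor Nr0b2 at 137.4 and 257.9 TPM. All 9 genes of canalicular anchoring and trafficking were also detected, with the ERM protein genes Rdx at 27.27 and 26.04 TPM and Ezr at 2.03 and 2.26 TPM.

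The coding models differed in the number of nucleotide-binding motifs. Walker A motifs, searched by their consensus in the longest GENCODE M21 coding model, numbered 2 in 35 members, 1 in 13 and 0 in 2. Abcd2, Abcd3, Abcd4, Abcb6, Abcb8 and Abcb10 held 1, as did Abcg2, Abcg5 and Abcb9. No exact match was found for Abcg8 and Abcg3, although Abcg5, the partner of Abcg8, held 1. The absence of a match says only that these letters are not in the model. Coding models ranged from 599 codons in Abce1 to 5034 in Abca13, the latter without a detectable level.

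Gene TPM was split over annotated transcripts in ways that changed what a level stands for. The tables list 216 transcripts of members, of which 5 had no type in GENCODE M21 and were counted as not protein-coding. Of the 27 members with more than 1 model and a mean of 1 TPM or more, 20 had the same leading model in both libraries. Among the other 7 were Abcc2, Abcb11, Abcb8, Abcc5, Abca7 and Abcc1. By the mean share of both libraries, the leading model was not protein-coding for Abcc3, Abcc5 and Abcb1a. In replicate 2 alone, that of Abcb11 was a processed transcript, at 43.31% of TPM against 42.26% for a coding model. In 10 members protein-coding models held under 75% of TPM in both libraries.

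**Figure D3:**
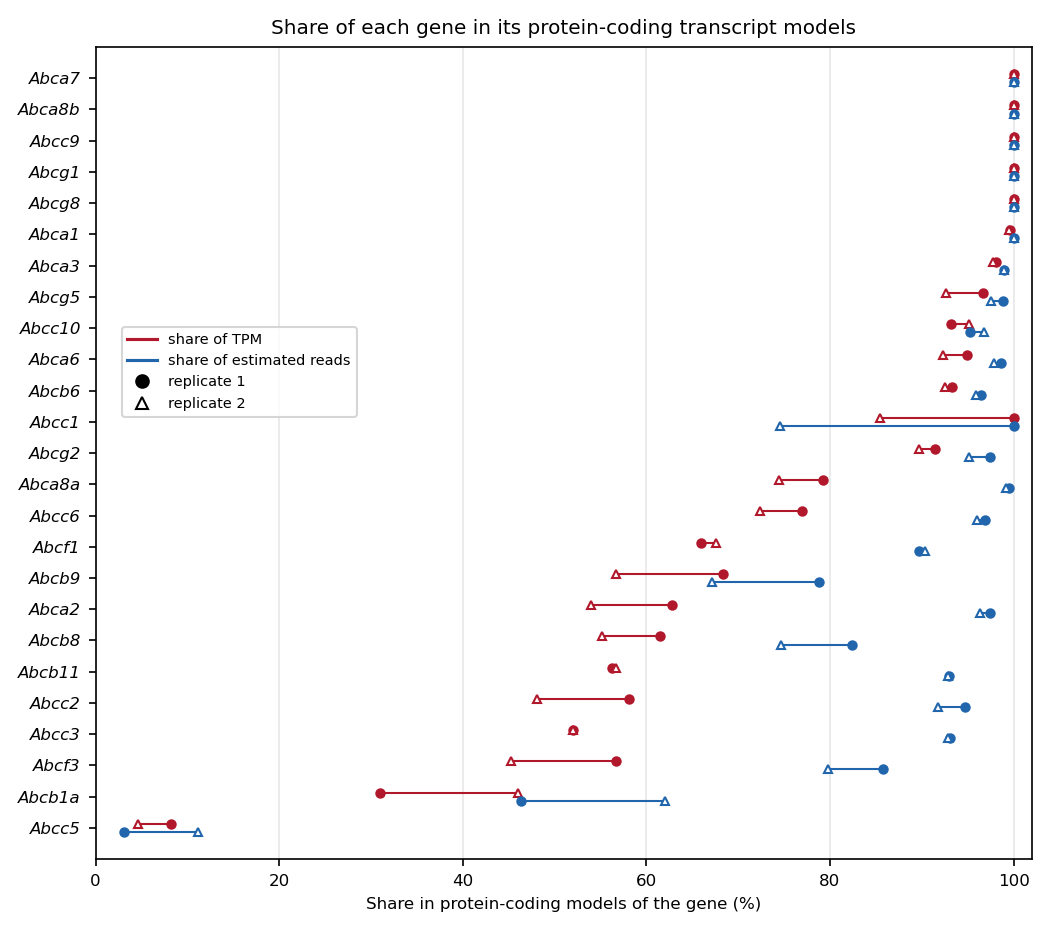
Share of each gene's TPM (red) and of its estimated reads (blue) in its protein-coding transcript models, in percent, for 25 members with more than 1 model and a mean of 1 TPM or more, with replicate 1 as a circle and replicate 2 as a triangle. For Abcc3 the coding share is 52% of TPM in both libraries but 93.1% and 92.9% of reads, and Abcc5 lies far to the left of the other genes on both measures.

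For Abcc3, the leading model, a processed transcript of 567 bases, held 45.23% and 45.28% of TPM but 6.37% and 6.52% of the estimated reads. For Abcb11, a processed transcript of 648 bases held 43.71% and 43.31% of TPM and 7.04% and 7.05% of reads. TPM divides reads by model length, so a short model weighs more in TPM than in reads. For Abcc2, protein-coding models held 58.1% and 48.1% of TPM and 94.7% and 91.8% of reads, and retained-intron models held the rest. In all 3 leading genes, most reads were thus assigned to protein-coding models.

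Abcc5 differed from these genes on both measures. Its protein-coding models held 8.22% and 4.67% of TPM and 3.14% and 11.2% of reads, and a retained-intron model of 4875 bases held 76% and 69.4% of reads. Abcb1a had 46.3% and 62% of reads in its protein-coding model, with the rest in a retained-intron model of 2705 bases. For these 2 members the gene level is in large part not the level of a coding model.

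With TPM of protein-coding models alone, the leading members kept their places by mean. Abcc3 had 119.8 ± 15.1 TPM, Abcc2 116.9 ± 8.27 TPM, Abcb11 104.3 ± 8.04 TPM and Abcc6 93.61 ± 35.8 TPM (SD, n = 2). On this scale the ranges of Abcc3 (109.1 and 130.4 TPM) and Abcc2 (111.1 and 122.8 TPM) overlapped. Abcc6 (68.32 and 118.9 TPM) overlapped the ranges of all 3 genes above it. Of the coding TPM of Abcc2, 54.09 and 63.56 TPM lay in a model of 1926 bases. That model is shorter than the 4632 coding bases of the longest one. Abcc5 moved from rank 28 to rank 39 in the family. By reads per kilobase of the longest coding model, Abcc3 again led, Abcb11 was 2nd and Abcc2 fell to rank 6, behind Abcc6, Abcg5 and Abcb6. The place of Abcc2 among the leading genes thus depended on how its reads were divided by length.

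For several members, the estimated split over models differed between the libraries. For Abcb8, the coding model of 3074 bases held 61.45% of TPM in replicate 1 and 20.26% in replicate 2, while that of 2939 bases held 0.02% and 32.13%. For Abca7, the coding model of 6638 bases held 23.66% and 62.98%, and that of 6590 bases held 33.57% and 3.17%. Posterior mean shares moved the same way but less. The Abcb8 model of 2939 bases then held 8.46% and 33.03%, and the Abca7 model of 6590 bases 32.86% and 11.69%. In both genes the sum over the gene's coding models changed less than either model did.

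The libraries were compared by estimated reads, scaled by TMM, with an exact conditional binomial test that asks only whether 2 libraries differ beyond counting error. Over all 14533 genes with 20 or more reads 57.1% passed at an adjusted p below 0.05. Of the 41 members tested 28 passed (68.3%), 16 of them with more scaled reads in replicate 2 (background 28.4%) and 12 in replicate 1 (background 28.7%). The 9 other members had under 20 reads. The median log2 ratio was 0.00 over the members and 0.00 over all genes. When a fold of at least 1.5 was also required, 7 members remained (17.1%), against a background of 16.4%, so at this size the members' share was near that of all genes. With edgeR's exact test and a common dispersion, 2 of the 41 members passed (Abcb1b and Abcc12), against a background of 1.11%. Abcc12, also among the 28 and the 7, met the filter of 20 reads through replicate 2 alone. Its passing is therefore no independent result. The common dispersion, a coefficient of variation of 24.18%, was estimated from these same 2 libraries taken as replicates. It therefore holds the gap being tested, so few genes could pass, and it does not separate biological from technical variation.

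Scaling set part of the split. With scaling to total reads on genes or to the spike-in RNAs, the median log2 ratio of all genes moved to 0.13 and 0.15, and 21 members were higher in replicate 2 under both and 9 or 8 in replicate 1. That is 70.0% and 72.4% of the members called, near the 69.4% and 73.6% of all genes called, against 57.1% of members and 49.7% of all genes with TMM. Under these scalings, DESeq2 size factors and posterior mean counts, 23 of the 28 members kept their direction and their call, of which 15 were higher in replicate 2 and 8 in replicate 1. Among the 5 that did not were Abcb11, Abcb8, Abcb4 and Abca5. Abcc2, Abca2, Abcf1, Abcb1a and Abcg3 did not pass with TMM but passed with total reads and with spike-ins, all higher in replicate 2, and Abca7 passed with DESeq2 size factors, higher in replicate 1.

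**Figure D4:**
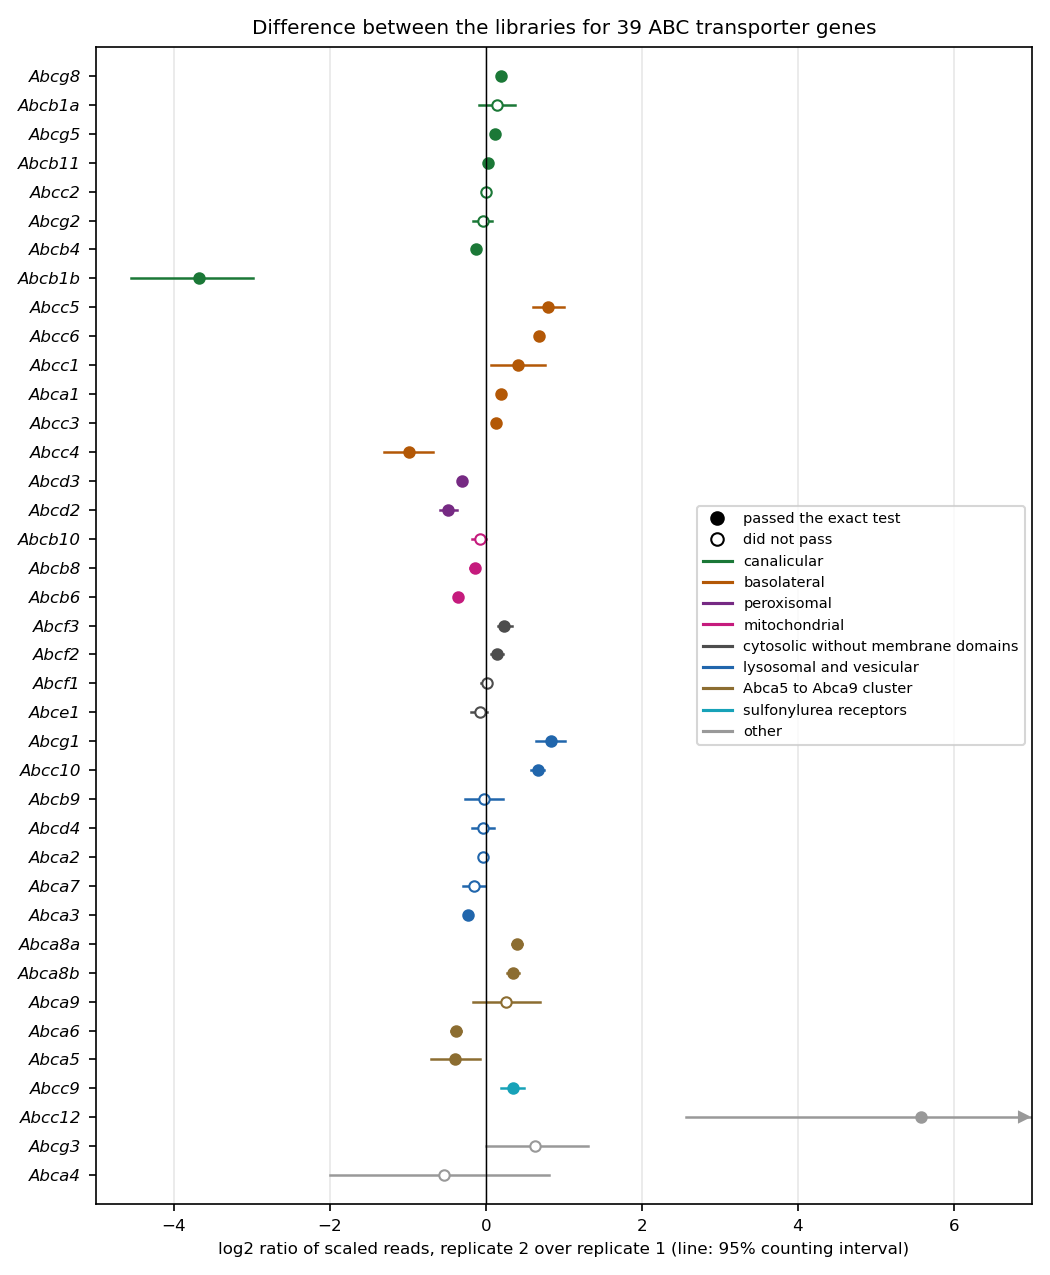
Log2 ratio of TMM-scaled reads, replicate 2 over replicate 1, for 39 of the ABC transporter genes tested, ordered by group, with lines for the 95% counting interval, filled points for genes that passed the exact test and an arrow where the interval has no upper end. Basolateral genes other than Abcc4 lie to the right of 0, the peroxisomal and mitochondrial genes drawn to the left (Abcb8 reached 0.01 with spike-in scaling), and Abcb1b and Abcc12 stand far from the rest.

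Basolateral genes were the group with most members higher in replicate 2: 5 of 6 passed in that direction (background 28.4%) and 1, Abcc4, in the other (background 28.7%). The same 6 calls were made with total reads and spike-ins, where most calls of all genes went to replicate 2, and with DESeq2 size factors. Abcc6 had 16449 and 29183 reads and a log2 ratio of 0.68 (95% counting interval 0.65 to 0.71), a 1.6-fold difference. Abcc5 had 346 and 668 reads and was 1.75-fold higher in replicate 2 (log2 ratio 0.80, adjusted p = 6.63e-17 by the exact test). Abcc3 passed with a log2 ratio of only 0.13 on 27511 and 33259 reads. Abcc4 was 1.99-fold higher in replicate 1 (236 and 131 reads, adjusted p = 6.78e-10 by the exact test).

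The peroxisomal genes Abcd2 and Abcd3 were higher in replicate 1, with log2 ratios of -0.48 and -0.31, under each of the 4 scalings. Of the mitochondrial genes, Abcb6 (-0.35) and Abcb8 (-0.14) were higher in replicate 1 and Abcb10 (-0.08) did not pass. Abcb8 reached 0.01 with spike-in scaling. Of the 10 peroxisomal partner genes, with TMM, 6 were higher in replicate 1 (background 28.7%) and 2 in replicate 2 (background 28.4%). These differences were smaller than 1.5-fold.

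Canalicular genes went both ways. Abcg8 (log2 ratio 0.20), Abcg5 (0.12) and Abcb11 (0.03) were higher in replicate 2, and Abcb4 (-0.13) and Abcb1b (-3.67) in replicate 1. Abcb11 did not pass with DESeq2 size factors, and Abcb4 reached 0.02 with spike-in scaling. Abcc2 had 27849 and 30828 reads and a log2 ratio of 0.00 (95% counting interval -0.02 to 0.03), although its TPM was 191.2 and 255.2. With total reads and spike-ins its ratio was 0.12 and 0.15 and passed, a move no larger than that of the median of all genes. Among the 9 genes of canalicular anchoring and trafficking, with TMM, 1 was higher in replicate 2 (background 28.4%) and 5 in replicate 1 (background 28.7%).

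Abcb1b and Abcc12 had the largest differences. Abcb1b had 190 reads in replicate 1 and 16 in replicate 2, a 12.8-fold difference (adjusted p = 1.11e-41 by the exact test), while Abcb1a had 274 and 334 reads and a log2 ratio of 0.14 that did not pass (95% counting interval -0.09 to 0.38), though it did with total reads (0.26) and spike-ins (0.29). Abcc12 had 0 and 26 reads, 7.84-fold higher in replicate 2 when the 0 is set to 3 reads. The 95% counting interval of the log2 ratio of Abcc12 began at 2.57 and had no upper end. It met the filter of 20 reads through replicate 2 alone, so a large difference was bound to follow from its being tested. Both genes stayed below 1 TPM in both libraries.

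In the lysosomal and vesicular group, Abcg1 (356 and 700 reads, 1.78-fold) and Abcc10 (1920 and 3367 reads, 1.59-fold) were higher in replicate 2, Abca3 was higher in replicate 1 (log2 ratio -0.23), and 4 genes did not pass. In the chromosome 11 cluster, Abca8a (0.40) and Abca8b (0.35) were higher in replicate 2 and their neighbours Abca6 (-0.38) and Abca5 (-0.39) in replicate 1, although Abca5 did not pass with total or spike-in scaling. Abcc9 was 1.27-fold higher in replicate 2. Of the cytosolic genes, Abcf3 (0.24) and Abcf2 (0.15) were higher in replicate 2 and Abcf1 and Abce1 did not pass.

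Markers of some other liver cells also differed between the libraries. Over all genes tested, 28.4% were higher in replicate 2 and 28.7% in replicate 1. All 8 Kupffer cell markers were higher in replicate 2, with a summed level of 156 and 261 TPM, as were 5 of 6 sinusoidal endothelial markers (90.93 and 128.9 TPM), 4 of 5 red cell markers tested (1290.2 and 2109.6 TPM) and 3 of 6 lymphocyte markers (4.38 and 10.55 TPM). The other red cell marker tested, Alas2, was higher in replicate 1 (40.32 and 35.13 TPM). Of 6 stellate cell markers 3 were higher in replicate 2 and 1 in replicate 1, and of 7 cholangiocyte markers 1 and 3. The 6 hepatocyte markers were at or above 641.1 TPM in both libraries, with 2 higher in replicate 2 and 4 in replicate 1. A call can be a very small difference: Alb passed as higher in replicate 1 with a log2 ratio of -0.01. All 4 pancreatic islet markers were below 0.1 TPM. Of 5 intestine and kidney markers 2 were detected, Fabp2 at 11.36 and 5.82 TPM, higher in replicate 1, and Muc2 at 1.97 and 3.16 TPM, higher in replicate 2. In bulk tissue fewer cells of a type and less RNA per cell cannot be told apart. The part of these cell types in the differences of Abcc6, Abcc5, Abcg1, Abca1 and the other members was not tested.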

How the data were processed

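Adult mouse liver RNA longer than 200 nucleotides was sequenced in 2 strand-specific libraries with read pairs of 76 nucleotides, per the labels. Per the file headers and notes, the authors quantified genes and transcripts on mm10 with GENCODE M4. No label or header names the program. The deposited estimated counts need not be whole and were rounded for tests. TPM as deposited has the same sum in each library, spike-ins included. FPKM as deposited served only as an alternative. The percent that the authors give per transcript is the part it holds of its gene's TPM. The posterior SD of the count, a score per gene deposited by the authors, shows uncertainty from shared reads.

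Names and coordinates came from GENCODE M21 on GRCm38, the assembly of mm10 (42462 of 43346 genes matched), and windows before starts from RefSeq GRCm38.p6. No protein table was used, and identity was computed on aligned coding bases with Biopython 1.88. After requiring 20 reads over both libraries, reads were scaled by TMM (edgeR 4.0.16, R 4.3.3) and each gene was tested by an exact conditional binomial test, two-sided, adjusted by Benjamini-Hochberg over all genes tested, at 0.05. Log2 ratios used a prior of 0.5 reads. Tests and intervals cover counting error only, since the libraries leave no residual degrees of freedom. PCR reads are not independent molecules, so the intervals may be too narrow even for that error. The test compares libraries, not conditions. It was tested on simulated data. Members with a mean of 1 TPM or more were named, and the others were counted or named with their group. Some genes that this rule selects are left out of the text and figures and stay in the counts. The members, lists and tests were chosen with earlier results of these data known. Other scalings, filters, thresholds and left-out libraries were tried as alternatives.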

Additional observations from a re-analysis of the deposited data

How the results depend on the processing

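The number of members detected in both libraries was 33 and ranged from 30 to 34 over the alternatives, which included thresholds of 0.5 and 2 TPM, or was 31 with protein-coding models alone. That last alternative was chosen after seeing the data. The family's share of TPM rose from 0.152% to 0.184% over nuclear protein-coding genes alone and was 0.11% with protein-coding models only. For the canalicular genes these shares were 0.0785% and 0.0455% against 0.0649%. The basolateral share was 0.0231% with protein-coding models against 0.0379%. With 1 library left out, the family share lay between 0.138% and 0.166%. Under the common dispersion, estimated from the same libraries, 2 members differed between libraries, 1 in each direction, against 28 by counting error. Both counts include Abcc12, which met the read filter through replicate 2 alone. Total reads and spike-ins moved the median ratio of all genes from 0.00 to 0.13 and 0.15, and with it ratios near 0. Directions reversed for Abcb8 (0.01 with spike-in scaling, 0.10 as a ratio of TPM), Abcb4 (0.02 with spike-ins) and Abca2 (0.08 with total reads, 0.11 with spike-ins). The ratios of Abcg2, Abcb10, Abce1, Abcd4 and Abcb9 also changed sign with total reads and spike-ins, but these genes passed under none of the scalings. The same leading model was found in 16 of 19 members at 5 TPM or more. With posterior mean shares, the share of the leading model moved by more than its SD in 9 of 25 members. No paired analysis was possible because the labels give 1 group. Depth limits members under 20 reads, which were not tested. A quasi-likelihood or DESeq2 fit of the libraries has no residual degrees of freedom.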

Other observations

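Several members that lie within 200 kb of each other had levels whose ranges did not overlap. On chromosome 7, Abcc6 and Abcc8 lie between 45967555 and 46180033, and Abcc6 had 88.88 and 164.2 TPM while Abcc8 had 0 reads in both libraries. On chromosome 16, Abcc5 (2.92 and 5.78 TPM) and the translation factor gene Abcf3 (24.61 and 38.42 TPM) lie between 20331303 and 20561379. On chromosome 5, Abcb8 (49.07 and 52.5 TPM) and Abcf2 (22.66 and 27.44 TPM) lie between 24393663 and 24577467. The tandem genes Abca14, Abca15 and Abca16 on chromosome 7, between 120203961 and 120544813, were alike in having 1 and 5, 0 and 0, and 0 and 0 reads.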
